A study of Sus scrofa with 4 samples.

Results

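CXCL9, CXCL10, CXCL11 and CCL8 are interferon-induced chemokines, small secreted proteins that draw leukocytes into a tissue. They were taken as every non-control probe on the arrays whose accession is a pig RefSeq transcript of 1 of these genes. This gave 5 of 43603 probes and 4 of the 3020 genes that could be named: 2 probes for CXCL10 and 1 each for CXCL9, CXCL11 and CCL8. The genes were chosen because their signal was much higher in the IL2RG KO spleen, so their KO and WT values are given here as a description with no test.

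The arrays carried spleen RNA of Minnesota miniature swine, 3 arrays from wild-type (WT) pigs and 1 array from a pig of genotype IL2RG +/-, called KO here after the study's name for its animals. IL2RG encodes the common gamma chain, a subunit of several interleukin receptors on lymphocytes. Per the study's methods, 1 copy was disrupted with TALENs, a pair of engineered nucleases, in donor cells, and the KO pigs were cloned from those cells by somatic cell nuclear transfer. No age, sex or treatment was given in the labels for the 4 animals, and the KO group is 1 array with no replicate, so differences between KO animals cannot be seen. WT 1 and KO lay on slide 1, and WT 2 and WT 3 on slide 2, scanned separately.

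CXCL9, CXCL10 and CXCL11 are the ligands of CXCR3, a receptor of activated T cells and NK cells. Interferon gamma, made mainly by those same lymphocytes, switches on these genes in macrophages, endothelium and stroma through JAK kinases and IRF1, and CXCL10 and CXCL11 also respond to type I interferons. CCL8 is a monocyte chemoattractant that acts through receptors that include CCR1 and CCR2. In the spleen such chemokines are produced mainly by macrophages, dendritic cells and stromal cells.

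Every value below is a log2 signal after subtracting the 75th percentile of its array, so 0 stands for that percentile and 1 unit is a 2-fold difference. Levels of different probes are not comparable with each other, since each oligonucleotide hybridises with its own efficiency. Each array had 43803 non-control spots, of which 66.1% to 72.7% were well above background, and 0 were saturated. In bulk spleen RNA, more cells that make a transcript and more transcript per cell cannot be told apart. The disrupted gene was read first. The brighter IL2RG probe was -0.64, -1.49 and -1.48 on WT 1, WT 2 and WT 3 and -1.98 on KO, and the other was -1.18, -2.11 and -2.18 on WT and -3.95 on KO, so KO was the lowest array on both probes. The spleen label was read from B cell genes, and MS4A1 and CD79A exceeded background on every array, with KO minus WT differences of -4.92 and -4.12 (limma, adjusted p = 0.284 and 0.304). The B cell list was mixed, with 3 of its 5 tested genes lower in KO and 2 higher, CD72 by 1.49 (adjusted p = 0.487) and BLNK by 0.76 (adjusted p = 0.699). Pancreas and liver markers were read as well, with 6 of 10 tested. ALB read -6.42, 2.60 and -5.05 in WT 1, WT 2 and WT 3 and -1.64 in KO. TTR read -7.78, 2.37 and -6.20 in WT and -3.77 in KO, so both were highest on WT 2. CPB1 and PNLIP, well above background on 1 WT array each, were also highest there. APOA1 was highest on WT 3 and CPA1 on WT 1. The source of the WT 2 signal was not tested.

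The CXCL9 signal read 3.35 (WT 1), 1.70 (WT 2) and -0.05 (WT 3) in the wild type, against 7.10 in KO. KO was the highest array, and the WT arrays themselves were spread over 3.39 log2 units. The WT mean was 1.67 ± 1.70 (SD, n = 3) and KO stood 5.44 above it, a 43.4-fold difference. Against the closest WT array, WT 1, KO was 13.5-fold higher.

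CXCL10 had a brighter and a dimmer probe. The brighter read 5.51 in WT 1, 3.90 in WT 2, 2.60 in WT 3 and 8.22 in KO. Its WT mean was 4.00 ± 1.46 (SD, n = 3), and KO was 4.21 higher, an 18.6-fold difference. The dimmer probe read 4.97 in WT 1, 3.12 in WT 2, 1.85 in WT 3 and 8.03 in KO, which stood 4.71 above a WT mean of 3.31 ± 1.57 (SD, n = 3). Both probes ordered the 4 arrays alike, and their differences from WT lay closer together than the WT SD of either.

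For CXCL11 the wild-type arrays read -2.75 (WT 1), -4.56 (WT 2) and -4.25 (WT 3), and KO read 1.48. This was the only member for which WT 2 was below WT 3, and the gap between those arrays was 0.31. The WT mean was -3.85 ± 0.97 (SD, n = 3) and KO was 5.33 higher, a 40.1-fold difference. The WT signals of CXCL11 were close to the floor of the scanner: the spot was 3.25 to 4.46 times its local background on WT and 49.8 times on KO. The error that the scanner software attached to the CXCL11 spot was at most 14.5% of the signal.

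CCL8 read -0.87 in WT 1, -2.52 in WT 2, -3.64 in WT 3 and 2.60 in KO, again in the order of CXCL9 and CXCL10. The WT mean was -2.34 ± 1.39 (SD, n = 3) and KO was 4.95 higher, a 30.9-fold difference. Its spot was 4.30 to 12.2 times the local background on WT and 123 times on KO.

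**Figure D1:**
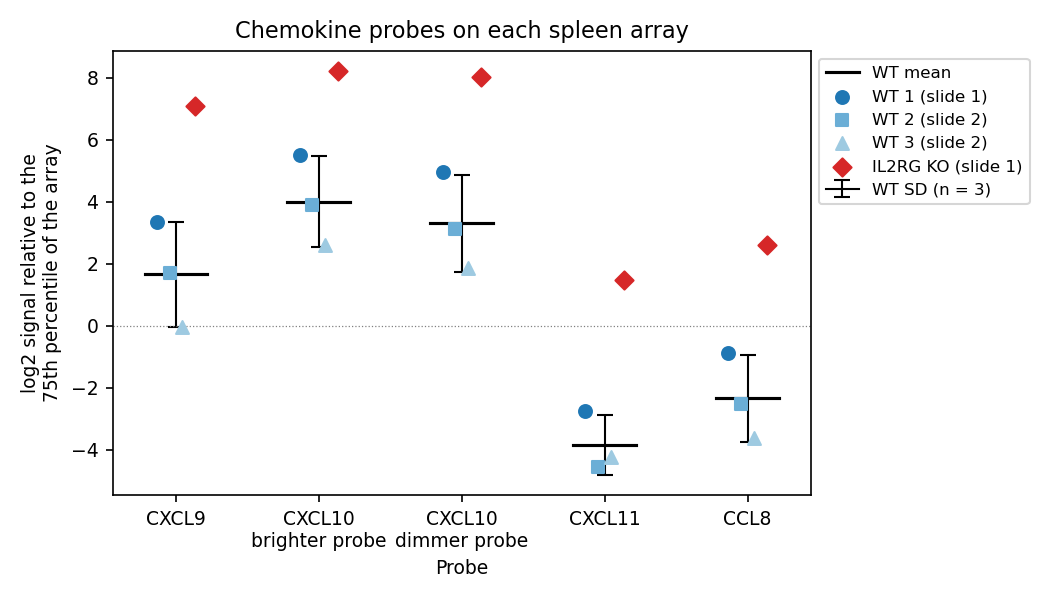
Log2 signal of each of the 5 chemokine probes (y axis, after subtracting the 75th percentile) on the 4 spleen arrays. Bars give the WT mean and its SD over 3 arrays; KO lies above all 3 WT arrays on each probe, and WT 1 is the highest WT array on each.

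All 5 probes were well above background on all 4 arrays, none was saturated, and KO was above all 3 WT arrays on each. Of all 33464 probes tested, 27.0% had KO above all 3 WT arrays, 7.71% were at least 2-fold above the WT mean and 3.42% at least 2-fold above the highest WT array. In order of the difference between KO and the WT mean, CXCL9 was 15th, CXCL11 17th, CCL8 21st and the CXCL10 probes 24th and 37th among those probes. That rank is what chose the genes and is no finding. Across the whole array, limma called 0 probes (0%) at an adjusted p of 0.05 with a 2-fold difference, 3775 had an unadjusted p under 0.05, and the methods' t-test gave 1333 unadjusted with a 2-fold difference and 0 after Benjamini-Hochberg adjustment.

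The genes were chosen for their difference between KO and WT, with earlier results of these data known, so the WT values are also given as a description. Among the WT spleens, WT 1 was the highest array for all 4 chemokines. It exceeded the mean of WT 2 and WT 3 by 2.52 for CXCL9, 2.26 for CXCL10, 1.66 for CXCL11 and 2.21 for CCL8. Among named genes, 9.12% had WT 1 at least 2-fold above that mean. WT 2 exceeded WT 3 on the same slide by 1.74 for CXCL9, 1.31 for CXCL10 and 1.11 for CCL8. The WT SDs, between 0.97 and 1.70, compare with a median WT SD of 0.33 over all tested probes and a 95th percentile of 1.40. The chemokines were therefore among the more variable transcripts of the WT spleens as well.

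Because WT 1 shared its slide with KO, the difference between these arrays is the comparison within a slide. It was 3.76 for CXCL9, 2.71 for CXCL10, 4.22 for CXCL11 and 3.48 for CCL8, or 13.5-fold, 6.52-fold, 18.7-fold and 11.1-fold. CXCL11 thus had the greatest difference of the members within the slide, whereas CXCL9 had the greatest from the mean of all WT arrays. The CXCL11 spot on WT 1 was only 4.46 times its local background, so the size of its difference rests on a value near the floor. After normexp background correction its difference from the WT mean was 3.97, below those of CXCL9 (5.32), CCL8 (4.23) and CXCL10 (4.17). Slide 2 holds no KO array, so no other value within a slide exists. For CXCL10, the difference between WT 1 and WT 3, at 2.92, was larger than that between KO and WT 1.

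**Figure D2:**
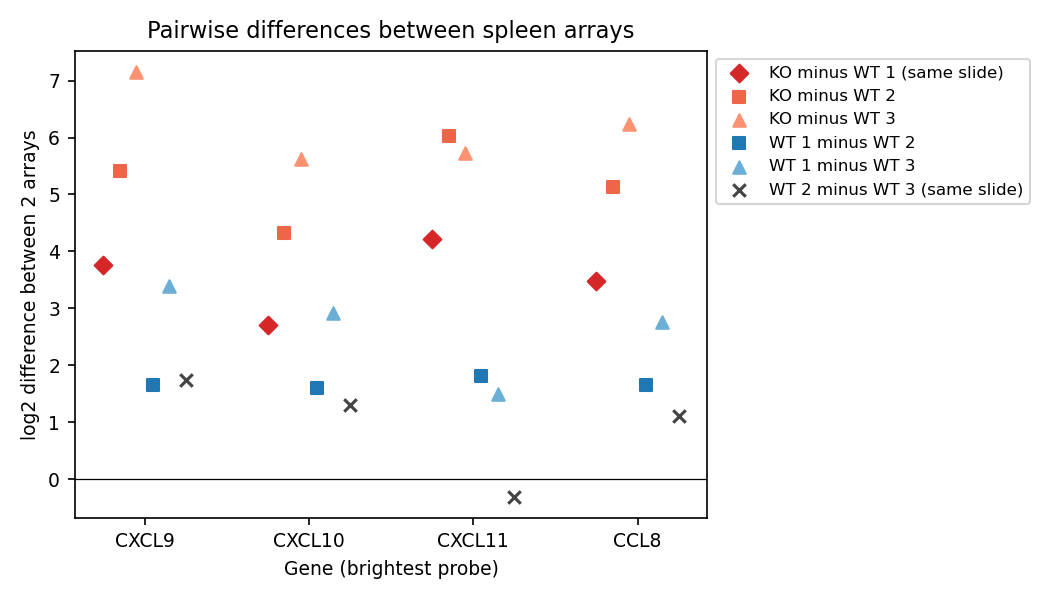
Log2 difference between each pair of arrays (y axis) for the brightest probe of each chemokine gene (x axis). Differences of KO from WT lie between 2.71 and 7.15, and differences between WT arrays reach 3.39.

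In the pig assembly Sscrofa11.1, CXCL9, CXCL10 and CXCL11 lie close together on chromosome 8, with ART3 between CXCL9 and CXCL10, and CCL8 lies on chromosome 12 beside CCL1, CCL11 and CCL2. Names and order were taken from that assembly, and no coordinates are given because the array files name no genome build. The interval of ART3, which belongs to a family of ADP-ribosyltransferases, overlaps those of CXCL10 and CXCL11 in that annotation. ART3 read -3.41, -6.70 and -5.06 in WT 1, WT 2 and WT 3 and -0.64 in KO, with 2 of the 3 WT values well above background. KO was 4.41 higher (limma, adjusted p = 0.430), or 2.52 after normexp background correction, and the strand of its transcript relative to the chemokines was not tested. SCARB2, a lysosomal membrane protein gene beyond CXCL11, was higher by 1.16 (adjusted p = 0.412). Beside CCL8, CCL11 was higher by 1.27 (adjusted p = 0.441) and CCL2 by 2.27 (adjusted p = 0.304), so their differences were smaller than that of CCL8 itself, a gap that was not tested.

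The receptors of the chemokines were read next, with proteins that bind or cleave them. No probe could be named for CXCR3, which was not analysed here. Of 13 genes listed, 10 were tested, with 7 higher in KO (1499 of 2742 named genes were) and 3 lower. Of the 10, 5 were at least 2-fold higher, where 14.0% of named genes were. None passed adjustment over all probes (0 called), and 5 had an unadjusted limma p under 0.05 (14.6% of named genes). CCR1, a receptor of CCL8 on monocytes, was higher by 1.68 (limma, adjusted p = 0.425) and CCR2 by 1.35 (adjusted p = 0.608), but CCR2 on KO was only 0.22 above WT 1. SDC4, a heparan sulphate proteoglycan of the kind that holds chemokines at the cell surface, was higher by 1.66 (adjusted p = 0.399). ACKR2, a scavenger of CC chemokines, was well above background only on KO, where it was at least 1.58-fold higher. DPP4, a protease that trims and inactivates CXCR3 ligands, read 1.54 in KO beside a WT mean of 0.93 ± 0.16 (SD, n = 3). ACKR1, a chemokine-binding protein of red cells and venules, had a difference of -1.88 (limma, adjusted p = 0.617) but differed from WT 1 by only -0.02.

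Among interferons, their receptors and the cytokines that drive interferon gamma, 11 of 13 genes were tested. Of these, 10 were higher in KO (1499 of 2742 named genes were) and 6 were at least 2-fold higher (background 14.0%). Those 6 were also at least 2-fold above the highest WT array, where 7.33% of named genes were. Limma called 0 of the 11, with 7 at an unadjusted p under 0.05 (14.6% of named genes). IFNG, which encodes interferon gamma, read -1.80, -3.35 and -4.63 in WT 1, WT 2 and WT 3 and 0.38 in KO. It ordered the arrays as CXCL9, CXCL10 and CCL8 did, and its difference was 3.65 ± 1.20 (SE; limma, adjusted p = 0.432). IL27, a cytokine of activated antigen-presenting cells, was higher by 2.92 (adjusted p = 0.370), and IL12B, a cytokine subunit that drives IFNG production, by 2.46 (adjusted p = 0.404). IL18, TNF and IFNGR2, a chain of the receptor for interferon gamma, were higher by 1.95, 1.82 and 1.83. The WT signals of IFNG and IL12B were low, and after normexp background correction their differences were 2.70 and 1.69.

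All 13 measured signalling and transcription factor genes had a positive difference, as did 1499 of the 2742 named genes. Of the 13, 7 were at least 2-fold higher (background 14.0%) and limma called 0, with 5 at an unadjusted p under 0.05 (14.6% of named genes). IRF1, an interferon-induced transcription factor that acts on these chemokine promoters, read 3.78, 3.21 and 2.97 in WT 1, WT 2 and WT 3 and 5.28 in KO. Its difference was 1.96 ± 0.43 (SE; limma, adjusted p = 0.388). IRF7 was higher by 2.24, NFKBIA, an inhibitor and target of NF-kappa B, by 1.42, and SOCS3, a feedback inhibitor of JAKs, by 1.32. After normexp background correction the SOCS3 difference was 0.81, below 2-fold.

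Other chemokines had differences in both directions. Among the other CXC, CX3C and XC chemokines, 8 of 12 were tested, with 4 at least 2-fold higher (background 14.0%) and 1 at least 2-fold lower (329 of 2742 named genes were at least 2-fold lower). CXCL8, the main neutrophil attractant, read -5.13, -5.51 and -6.91 in WT 1, WT 2 and WT 3 and 2.59 in KO, and 2 of the 3 WT values were well above background. Its difference of 8.44 (limma, adjusted p = 0.284) exceeded those of the 4 interferon-induced chemokines, and it was 5.69 after normexp. AMCF-II, a pig neutrophil attractant, was well above background on only 1 of the 3 WT arrays, so the size of its difference rests on values near the floor. It was 7.50 (limma, adjusted p = 0.304), and 4.42 after normexp. CXCL2 was higher by 3.52 (adjusted p = 0.345). CXCL16 was higher by 2.23 (adjusted p = 0.315). CXCL8, AMCF-II and CXCL2 are inducible without interferon. CXCL12, a constitutive chemokine of stroma, read 3.36 in KO beside a WT mean of 3.85 ± 0.03 (SD, n = 3).

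Among the other CC chemokines, 13 of 20 were tested, with 8 at least 2-fold higher (background 14.0%) and 2 at least 2-fold lower (329 of 2742 named genes). CCL26, an eosinophil attractant, was higher by 4.35 (limma, adjusted p = 0.284), CCL4 by 2.63 (adjusted p = 0.461), CCL2, the monocyte attractant related to CCL8, by 2.27 (adjusted p = 0.304) and CCL20 by 1.37 (adjusted p = 0.420). After normexp background correction the CCL20 difference was only 0.45, below 2-fold. CCL2 differed little among the WT arrays, at 3.67, 3.49 and 3.70, unlike CCL8. CCL21, which guides T cells and dendritic cells into lymphoid tissue, was 1.72, 1.08 and 1.36 in WT and -0.80 in KO. At a difference of -2.18 (adjusted p = 0.342) it was the 1 member of this list with KO at least 2-fold below all WT arrays, where 3.03% of named genes were. CCL5, a chemokine of T cells and NK cells, was higher by 0.95 than the WT mean (adjusted p = 0.726), and its difference from WT 1 was -0.06.

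Interferon-stimulated genes had 26 of 49 tested, of which 25 were higher in KO (1499 of 2742 named genes were) and 24 at least 2-fold higher (background 14.0%). Limma called 0 of them, and 7 had an unadjusted p under 0.05 (14.6% of named genes). The median difference was 1.90, and it was 0.08 over all named genes tested. The largest differences were 3.86 for UBD, a ubiquitin-like protein, 3.12 for CD274, which encodes the ligand PD-L1, 3.08 for GBP2 and 2.93 for GBP1, both guanylate-binding GTPases. Adjusted p values of limma for these were 0.371, 0.409, 0.443 and 0.431. The smallest were 0.61 for IFIT1 and -0.34 for TAP2, whose probes disagreed, between -0.34 and 1.90.

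As with the chemokines, WT 1 was the array where most of these genes were high among WT. WT 1 was at least 2-fold above the mean of WT 2 and WT 3 for 22 of the 26 (background 9.12%), with a median of 1.78, beside 4 of the 4 chemokines with a median of 2.24. Within slide 1, KO was at least 2-fold above WT 1 for 7 of the 26, with a median of 0.64, where 13.4% of named genes were. The 7 genes, named after their values were seen, were UBD, CD274, GBP1, GBP2, TAP1, BST2 and PSMB10. The chemokines had all 4 at least 2-fold above WT 1 with a median of 3.62. That gap was not tested, as the chemokines were chosen for their difference from WT.

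**Figure D3:**
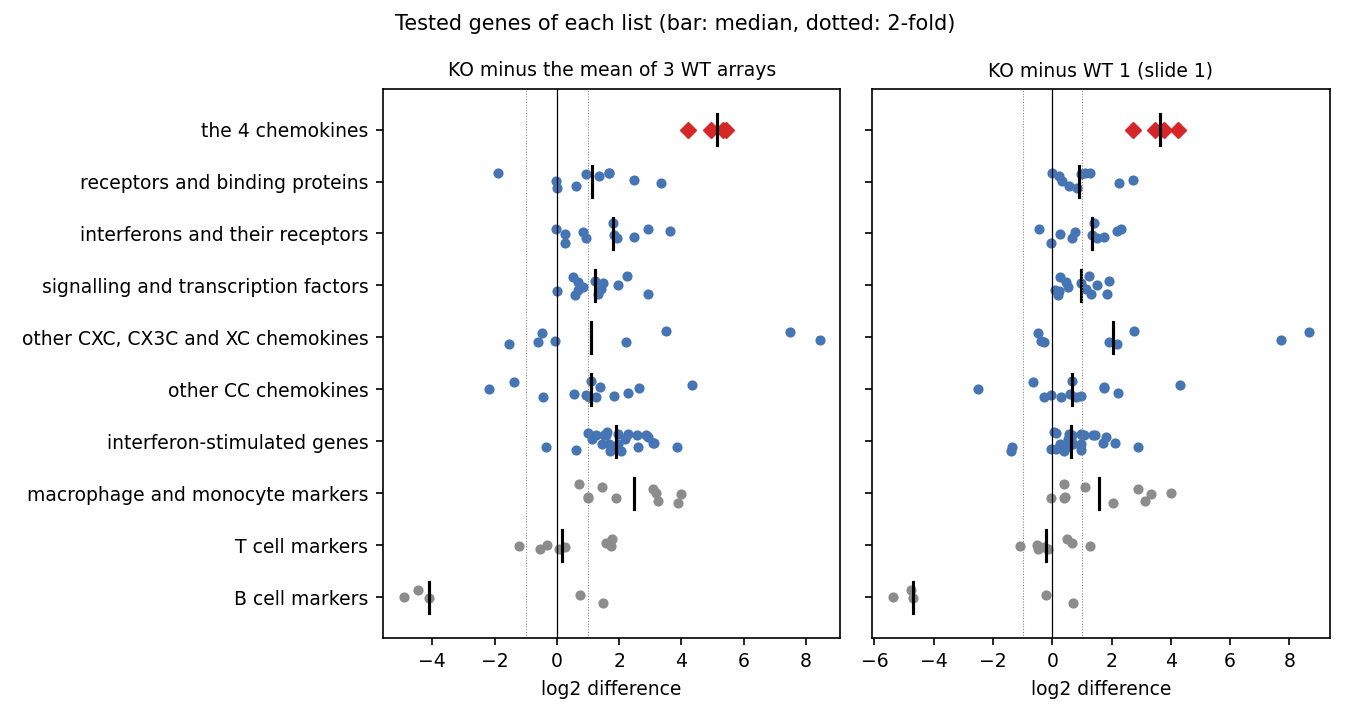
Log2 difference of KO from the mean of the 3 WT arrays (left) and from WT 1 on the same slide (right) for each tested gene of the lists (y axis), with the list median as a bar. The median of interferon-stimulated genes is 1.90 on the left and 0.64 on the right, and that of the 4 chemokines is 5.14 and 3.62.

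Over these 6 lists, 81 of 126 genes were tested and limma called 0, with a smallest adjusted p of 0.284. An unadjusted p under 0.05 was reached by 33 genes (40.7%), and by 14.6% of all named genes.

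Markers of cells that make or answer these chemokines were read beside them. Of 16 macrophage and monocyte markers, 10 were tested, all 10 were higher in KO (1499 of 2742 named genes were) and 7 at least 2-fold higher (background 14.0%), with limma calling 0. The log2 of their summed level, which is weighted to the brightest probes (here C1QA, C1QB and C1QC, with differences of 0.99, 0.71 and 1.00), was 9.47, 8.92 and 8.85 on the WT arrays and 10.2 on KO, and each of the 10 was well above background on every array. LYZ, which encodes lysozyme, was higher by 3.99, FCGR1A, the high-affinity IgG receptor, by 3.89, and MRC1, the mannose receptor, by 3.25. Summed T cell markers were 5.59, 6.24 and 4.61 in WT and 5.27 in KO, and NK cell markers 5.27, 4.58 and 3.15 in WT and 4.68 in KO, both inside the WT range, with 5 of 8 T cell and 2 of 4 NK cell genes higher. The B cell sum was 4.68, 3.32 and 3.58 in WT and 4.31 in KO, also inside the WT range. Of dendritic cell markers only XCR1 was measured, at 1.61, 3.15 and 0.97 in WT and 1.52 in KO. Neutrophil markers summed to 0.74, 4.13 and 6.77 on WT 1, WT 2 and WT 3 and 3.72 on KO, an order of the WT arrays opposite to that of CXCL9, CXCL10 and CCL8. Summed levels of endothelial and stromal markers were 6.62 to 7.38 in WT and 7.07 in KO, with 2 of 6 genes higher and 4 lower. The part of any of these cells in the chemokine differences was not tested.

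Genes of like pattern were ranked by the distance between their 4 array values and those of the chemokines, each after subtraction of the gene's own mean, so the KO difference itself weighs heavily in the ranking. Among 2738 other named genes, the nearest to the mean of the 4 chemokines were SLC1A3, a glutamate transporter, at a distance of 0.94, DRAM1, a regulator of autophagy, at 1.01, FCGR1A at 1.14, IFNG at 1.18, UBD at 1.23, GPNMB, a glycoprotein of macrophages, at 1.29 and LYZ at 1.30. These distances rest on the brightest probe of each gene. KO minus WT was 3.28 and 4.71 over the 2 probes of SLC1A3 and 2.54 to 4.19 over the 4 of GPNMB. It was 3.99 to 4.10 over the 3 of LYZ. Pearson's r with the mean pattern was 0.98 to 1.00 over 4 arrays that include the 1 KO array. HTR7, a serotonin receptor, came next, but it passed the background threshold in KO alone, so its WT values have no order and no distance is given for it.

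The members did not all have the same neighbours. The nearest to CXCL9 were CCL8 (0.67), CXCL10 (1.12) and GZMK (1.35), a protease of cytotoxic lymphocytes. Those of CCL8 were CXCL10 (0.65), CXCL9 (0.67) and SLC1A3 (1.04). For CXCL10 the nearest was IFNG (0.50), ahead of CCL8 (0.65). HTR7 followed, with the same limit on its WT values. The IFNG difference was smaller after normexp, at 2.70, and the part of its low WT signals in its distance to CXCL10 was not tested. CXCL11 was nearest to SLC1A3 (0.58), PTGS2 (0.95), the inducible cyclooxygenase, and DRAM1 (0.98), with no chemokine of the set among its 3 nearest. The distance between the brighter and the dimmer CXCL10 probe, 0.47, gives a scale for probes of a single gene. CXCL11 stood 1.15 to 1.62 from the brightest probes of the other members, which stood 0.65 to 1.12 from each other. The CXCL10 scale comes from spots at least 109 times their local background, whereas CXCL11 was 3.25 to 4.46 times on WT. It may therefore not apply to CXCL11, and the part of these low signals in its distances was not tested.

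**Figure D4:**
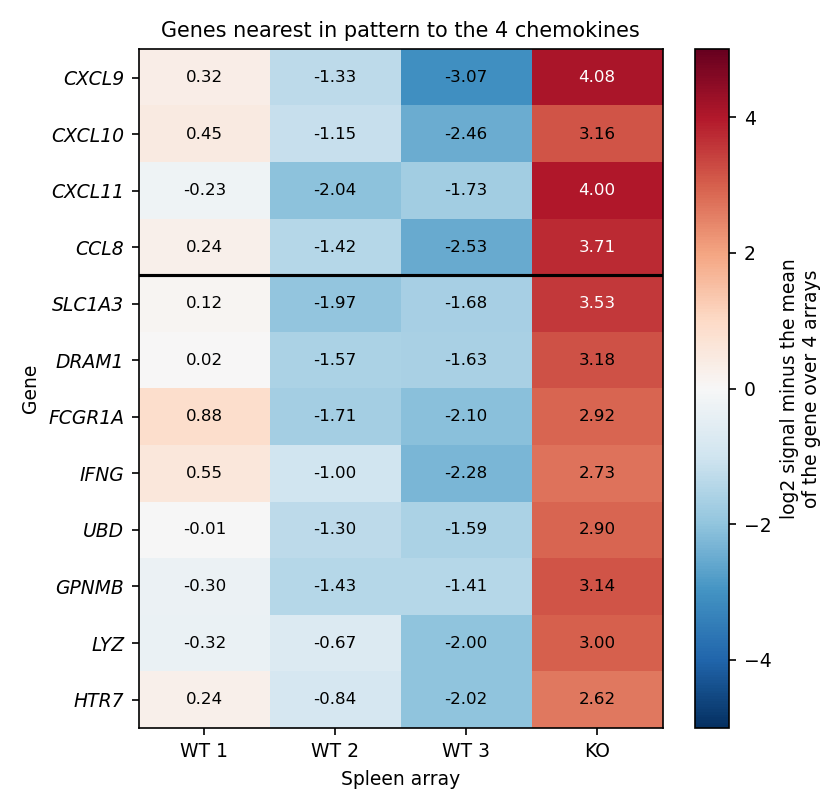
Log2 signal on each array minus the mean of the gene over the 4 arrays, for the 4 chemokines (above the line) and the 8 named genes nearest to their mean pattern (below it). KO is the highest array and WT 1 the highest WT array in each row, which for the lower rows follows from their choice by nearness. The WT values of HTR7 were not well above background, so their order has no meaning.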

How the data were processed

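Spleen RNA of 3 WT pigs and 1 IL2RG KO pig was analysed. Per the labels, cRNA amplified from total RNA carried Cy3 and was hybridised to Agilent porcine arrays by the authors. Although the published methods mention Cy3 and Cy5, the files hold 1 channel, so values were treated as one-colour. The deposited intensity is the background-corrected processed signal of Agilent Feature Extraction 11.0.1.1, with no normalisation between arrays. A deposited series table holds log2 values of 27421 probes that the authors had quantile-normalised, as judged from its sorted columns, which differed by at most 0.00154. It served as an alternative.

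Groups came from the sample titles. Whether the WT samples came from separate animals rests on those labels alone, so p values measure the spread between these samples. Spots flagged as outliers on any array were left out, which removed 28 probes. Log2 signals minus the 75th percentile of the array over all non-control spots were averaged by probe. Probes well above background on at least 1 array were tested (33464 of 43575), a filter blind to group. Accessions without versions were matched to RefSeq transcripts of Sscrofa11.1, which named 6686 probes (15.3%). The brightest probe stood for a gene. limma 3.58.1 in R 4.3.3 (lmFit, eBayes, two-sided, Benjamini-Hochberg over all probes tested) compared KO with WT, with 2 residual degrees of freedom from the WT arrays. The KO array was assumed to vary like WT. An exact permutation test over 4 arrays cannot go below 0.25. The fit was tested on simulated data. Tables were handled in Python 3.11.15 (pandas 2.3.3).

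The members and gene lists were chosen with earlier results of these data known. Some genes of these lists enter the counts but are not reported here by name. The text names every member; genes of the receptor, interferon, signalling and chemokine lists whose KO value lay 2-fold or more beyond every WT array, or known to bind or control the members; the 4 largest and 2 smallest differences of interferon-stimulated genes; up to 3 markers of a cell type; and the 8 or 3 genes of nearest pattern. ART3, SCARB2, CCL5, CCL11, CXCL12, DPP4, ACKR1, BST2, PSMB10, TAP1, CD72, BLNK, C1QA, C1QB and C1QC were named outside that rule, after their values were seen. The same holds for ALB, TTR, CPB1, PNLIP, APOA1 and CPA1. Alternatives were other scalings, normexp with an offset of 50 on the median spot and background signals (the files hold no mean signal), the deposited table, other filters, the mean of all probes, eBayes with a trend, the slide as a block, the methods' t-test, and leaving out each WT array. The number of arrays limits the precision.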

Additional observations from a re-analysis of the deposited data

How the results depend on the processing

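The 4 chemokines were higher in KO under each of 10 alternatives. Over the runs that left out 1 WT array, the difference ranged from 4.58 to 6.28 for CXCL9, 3.51 to 4.97 for CXCL10, 4.97 to 5.88 for CXCL11 and 4.30 to 5.68 for CCL8, in each case highest without WT 1. With the slide as a block it was 3.76 for CXCL9, 2.71 for CXCL10, 4.22 for CXCL11 and 3.48 for CCL8, below the reported value by more than the WT SD for all but CXCL9, a shift that follows from the block leaving only KO and WT 1. Normexp gave 3.97 for CXCL11, and the cause was not tested. The differences among WT arrays and within slide 1 moved by less than the WT SD under quantile normalisation and the median shift. Calls across the array were 0 in 12 of 15 alternatives, 4 under normexp, 6 by eBayes with a trend and 1333 by the unadjusted methods' t-test. Limma called 0 of the 81 list genes under each alternative run.

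Counts of genes at least 2-fold higher moved by over 1.5 times for interferon-stimulated genes with the slide as a block, at 7 instead of 24, for other CC chemokines with the block, at 4, and under normexp, at 5, instead of 8, and for the other CXC, CX3C and XC chemokines in the deposited table, at 2 instead of 4, where CXCL8 and AMCF-II were not analysed. Leaving out 1 WT array gave 18 to 24 interferon-stimulated genes and 6 to 9 other CC chemokines. Of 54 named genes, the sign changed for CCL5 with the block (-0.0605), for TAP2 as the mean of its probes (0.78) and over the runs without 1 WT array (-0.86 to 0.17, highest without WT 1), for S100A12 over those runs (-0.98 to 2.07, lowest without WT 1), and for LTF over those runs (-3.45 to 0.0025, highest without WT 3) and with the block (2.19); other causes were not tested. No paired analysis was possible because there was 1 KO array and the labels pair it with no WT array.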
